A study of Homo sapiens with 16 samples.

Results

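The genes of cholesterol and fatty acid synthesis were followed through 2 human lung cancer lines, 2 ways of growing them and 2 genotypes. The members were fixed by name as 37 symbols, and all 37 were found among the 18227 genes of the tables. They comprise 18 enzymes of the sterol pathway, 10 genes of fatty acid synthesis and 9 genes of regulation and sterol transport. RNA sequencing covered 16 libraries, 2 in each of 8 groups. A549 and H2023 are established lines of non-small cell lung cancer. Each was grown in normal culture for 3 days or in a stem-cell-enriched culture, here called oncosphere culture, for 7 days. Both were studied as wild-type cells and as cells with a knockout of ZC3H12A, which encodes the RNase Regnase-1. Culture type and days in culture changed together and cannot be told apart. The titles name 1 clone per line for the knockout, so the edit and other properties of that clone cannot be told apart either. Nothing in the labels says whether the 2 libraries of a group came from separate cultures, and p-values measure the spread between these libraries, which may be technical.

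Cholesterol is built from acetyl-CoA through mevalonate, squalene and lanosterol, and fatty acids are built from the same precursor through malonyl-CoA. Most of these genes are activated by the SREBP transcription factors, encoded by SREBF2 and SREBF1. SCAP escorts the SREBPs out of the endoplasmic reticulum when sterol is scarce, and the INSIG proteins hold them there when sterol is plentiful. ABCA1, ABCG1 and MYLIP are targets of the LXR receptors, which respond to oxysterols, and they promote sterol export or limit sterol uptake.

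ZC3H12A itself was checked first in every library. In A549 normal culture it was at 30.7 and 34.9 TPM (a transcript level scaled for gene length and library total) in wild type and 16.9 and 19.9 in the libraries labelled knockout. In A549 oncosphere culture it was at 48.5 and 49.2 against 60.2 and 55.6. In H2023 it was at 26.8 and 29.9 against 41.5 and 41.5 in normal culture, and at 32.5 and 26.4 against 94.6 and 69.2 in oncosphere culture. The mRNA was therefore higher under the knockout label in 3 of the 4 comparisons. Its level does not test an edit of the coding sequence, and the cells are called the libraries labelled knockout here. Every library had 13824 to 14508 genes at 1 TPM or more, and replicates correlated at r = 0.983 to 0.992 across genes. KRT7, KRT8 and KRT18, keratins of simple epithelium, ranged from 630.2 to 5982 TPM. LAPTM5, PECAM1 and PDGFRB, markers of blood, endothelial and stromal cells, stayed at or under 2.76 TPM, and the fibroblast collagen COL1A1 was at 1.11 to 8.46 TPM. EPCAM and KRT19, other epithelial markers, reached as low as 0.37 and 0.29 TPM in A549, and CD68 ranged from 28.7 to 179 TPM. Mitochondrially encoded transcripts made up 10.3% to 18.7% of the TPM total of normal libraries and 19.5% to 25.6% of that of oncosphere libraries.

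The oncosphere libraries carried more message for both branches, and the sterol sum was highest in H2023. In wild-type H2023 the summed TPM of the 18 sterol genes was 991.7 and 770.7 in normal culture against 6885 and 7355 in oncosphere culture. The libraries labelled knockout held 746.7 and 723.2 against 6618 and 6821 TPM. In wild-type A549 the sum was 934.0 and 971.2 against 1430.5 and 2354, and under the knockout label 798.0 and 743.2 against 1842 and 1479. The oncosphere libraries were above the normal ones in each of these sets, without overlap. The ratio of mean sums was 8.08 and 9.14 in H2023, wild type and labelled knockout, and 1.99 and 2.16 in A549. In a bulk sample, more RNA per cell and a larger share of cells with that RNA cannot be told apart.

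The summed level of the 10 fatty acid genes differed between cultures by a more even ratio in the 2 lines. Their summed TPM was 1047 and 700.4 in wild-type H2023 in normal culture against 3234 and 3607 in oncosphere culture. The libraries labelled knockout held 1091 and 887.9 against 3399 and 3589 TPM. In A549 the sums were 964.3 and 1246 against 2069 and 2933 in wild type, and 1225 and 1472 against 2765 and 2917 under the knockout label. The ratio of mean sums was 3.91 and 3.53 in H2023 and 2.26 and 2.11 in A549, wild type and labelled knockout.

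**Figure D1:**
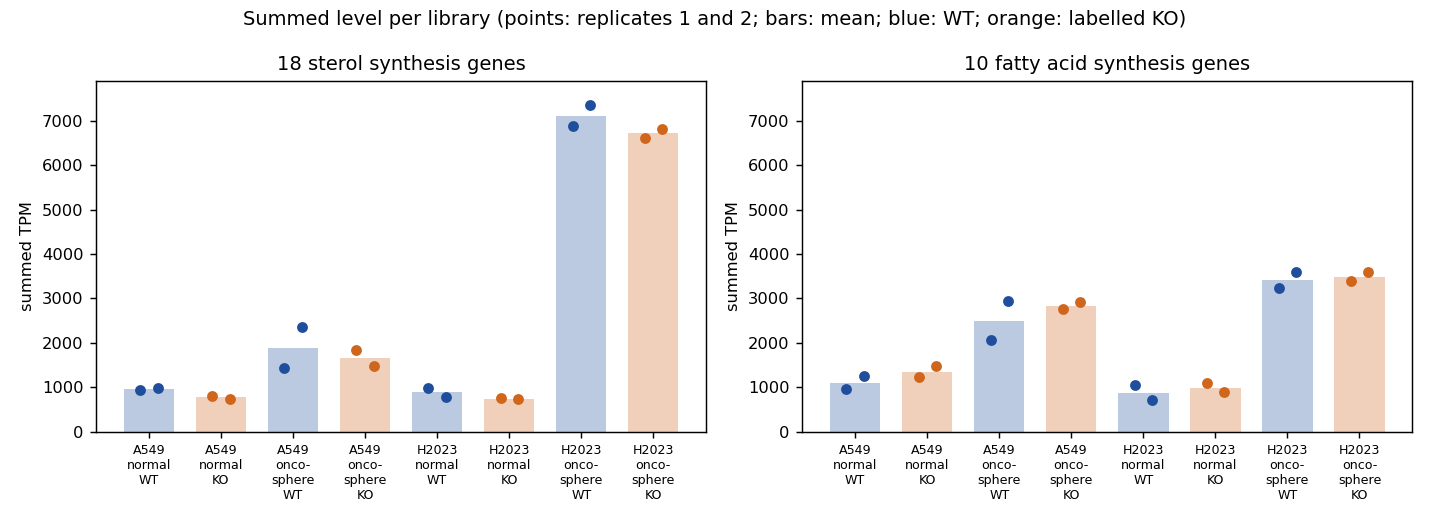
Summed TPM of the 18 sterol genes (left) and the 10 fatty acid genes (right) in each library, with groups along the horizontal axis; points are replicates 1 and 2 and bars are their mean. The sterol sums of the H2023 oncosphere libraries lie between 6618 and 7355 TPM, and no other library exceeds 2354.

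Members were tested with limma on log2(TPM + 1) over all 18227 genes, and a member is called higher or lower where its Benjamini-Hochberg adjusted p is under 0.05. Between oncosphere and normal culture, 25 of the 37 members rose and 0 fell in wild-type A549, where 41.5% of all genes were called, 19.1% rising and 22.4% falling. In A549 labelled knockout 22 rose and 0 fell, against 22.4% of all genes called, 11.4% rising and 11% falling. In wild-type H2023 27 rose and 3 fell, where 27.4% of all genes were called, 5.17% rising and 22.2% falling. In H2023 labelled knockout 27 rose and 4 fell, against 32.5% of all genes called, 9.76% rising and 22.7% falling. 19 members rose in all 4 comparisons, and PMVK, SREBF1, SCAP, EBP, ACAT2 and MYLIP rose in 0 of them. The share of all genes that rose in all 4 was not computed, so the count of 19 has no background beside it. The count of 19 is also not kept when any library of A549 labelled knockout is left out. The mitochondrial share was higher in oncosphere libraries too, and after rescaling without the mitochondrially encoded genes the counts rising were 26, 25, 27 and 28 in the same order. The all-gene counts rising became 4241, 2395, 1516 and 2594 of 18212, in place of 3479, 2081, 943 and 1779 of 18227. Those falling became 3251, 1660, 1828 and 2414, in place of 4082, 2004, 4043 and 4146. The all-gene background therefore depended on the scaling, most of all in H2023.

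In the sterol branch 13 of 18 members rose in wild-type A549, 12 in A549 labelled knockout and 15 in H2023 of either genotype. The median log2 fold change of the 18 was 0.89 and 1.19 in A549 and 2.69 and 2.77 in H2023, wild type and labelled knockout. The median over all genes was -0.01 and -0.01 in A549 and -0.18 and -0.12 in H2023.

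**Figure D2:**
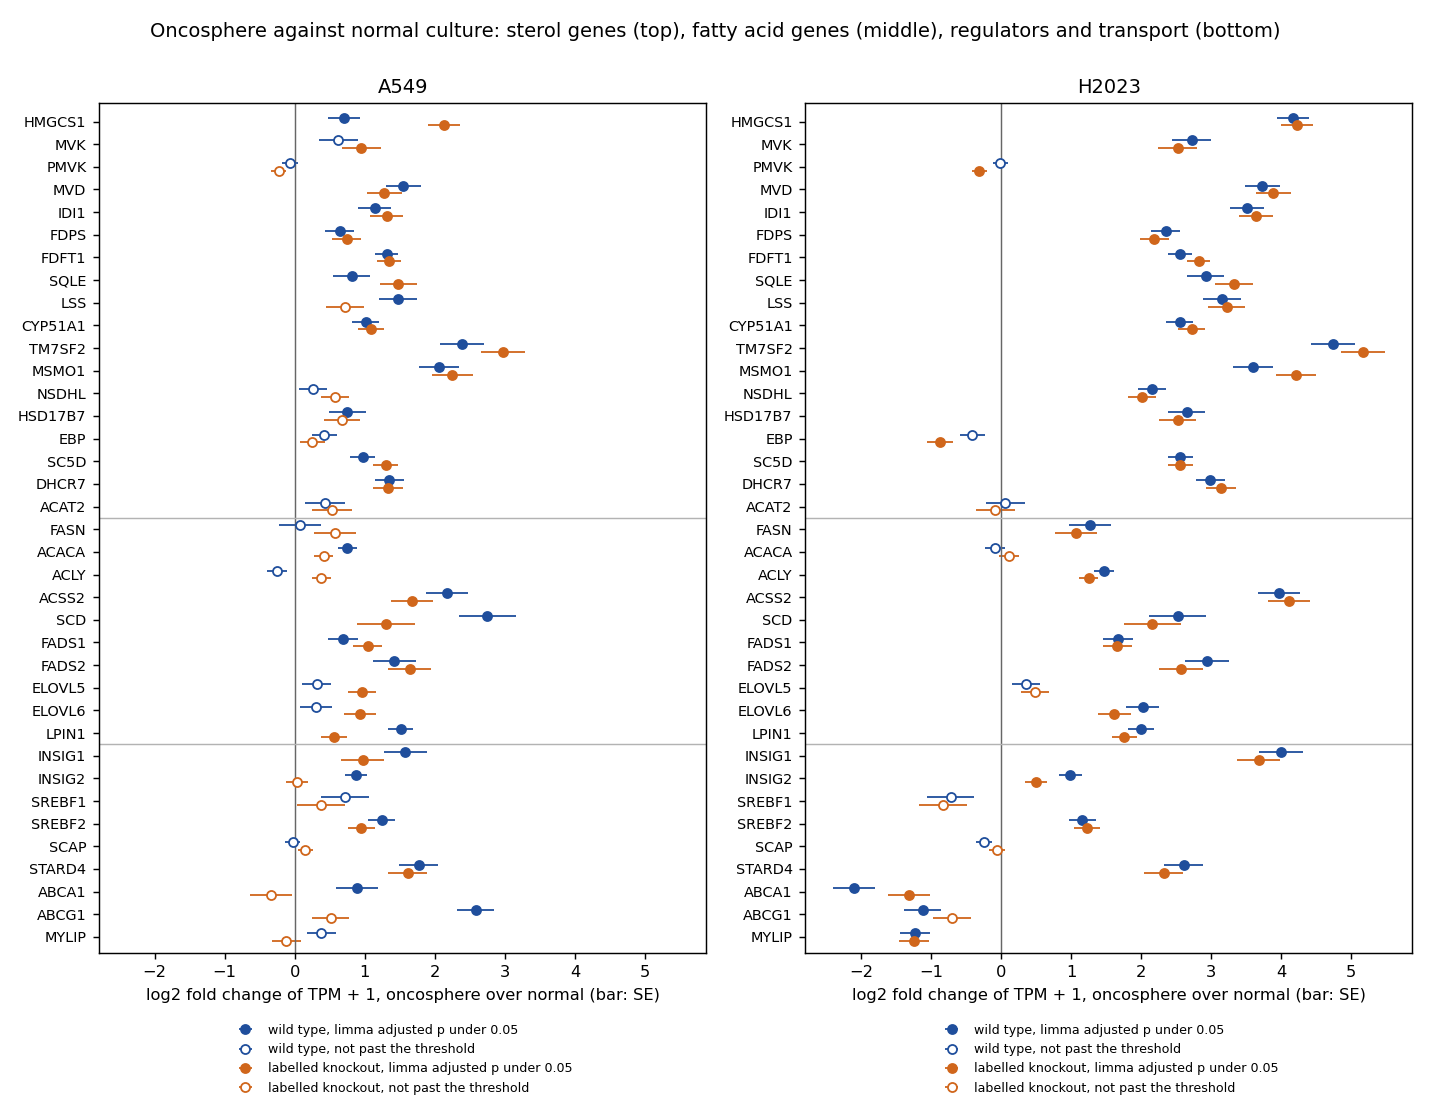
Log2 fold change of TPM + 1 between oncosphere and normal culture for the 37 members in pathway order, in A549 (left) and H2023 (right), with bars of 1 standard error and filled points where the limma adjusted p is under 0.05. In H2023, 15 of the 18 sterol genes are filled to the right of 0 in both genotypes, with PMVK, EBP and ACAT2 near or left of 0.

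HMGCS1 condenses acetoacetyl-CoA with acetyl-CoA at the entry to the mevalonate pathway. In wild-type H2023 it was at 83.8 and 68.5 TPM in normal culture and 1310.0 and 1456 in oncosphere culture. The libraries labelled knockout held 55.45 and 57.97 against 1049 and 1117 TPM. It had the highest oncosphere levels of the sterol branch there, and no normal library came near them. The log2 fold change was 4.17 ± 0.23 in wild type and 4.23 ± 0.23 under the knockout label, with limma adjusted p = 2.31e-06 and 1.19e-06. In A549 wild type it was at 78.9 and 77.9 against 92.9 and 176 TPM, a log2 fold change of 0.70 ± 0.23 (limma adjusted p = 0.0304). The A549 libraries labelled knockout started lower, at 26.05 and 31.2, and reached 149 and 110.3 TPM, a log2 fold change of 2.13 ± 0.23 (limma adjusted p = 6.28e-05).

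MVD, which decarboxylates mevalonate diphosphate to isopentenyl diphosphate, also rose in all 4 comparisons. Wild-type H2023 held 55.9 and 37.3 TPM in normal culture and 603 and 636 in oncosphere culture, and the libraries labelled knockout 48.2 and 49.8 against 777 and 705. In A549 the values were 29.2 and 34.9 against 68.5 and 133 in wild type and 31.96 and 28.1 against 79.7 and 69.3 under the knockout label. IDI1, FDPS and FDFT1, which carry the isoprenoid chain on to squalene, rose in all 4 comparisons as well. Their log2 fold changes ran from 0.64 (FDPS, wild-type A549) to 3.64 (IDI1, H2023 labelled knockout). MVK, mevalonate kinase, rose in 3 comparisons and had a log2 fold change of 0.62 ± 0.28 in wild-type A549 (limma adjusted p = 0.0988).

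SQLE, squalene epoxidase, commits squalene to sterols. It was at 79.7 and 51.8 TPM in wild-type H2023 in normal culture and 498 and 488 in oncosphere culture. Under the knockout label it was at 53.9 and 52.6 against 513 and 578. The groups lay far apart, with log2 fold changes of 2.92 ± 0.27 and 3.33 ± 0.27 (limma adjusted p = 3.59e-05 and 6.35e-06). In A549 it was at 66.45 and 73.9 against 86.5 and 178 TPM in wild type, and at 42.3 and 37.65 against 126 and 101 under the knockout label. It was called higher in both (limma adjusted p = 0.0283 and 0.00192), and wild-type replicate 1 in oncosphere culture lay only just above the normal libraries. LSS, which closes squalene epoxide to lanosterol, rose in 3 comparisons. In A549 labelled knockout its log2 fold change was 0.72 ± 0.27 (limma adjusted p = 0.0748).

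TM7SF2, a sterol C14 reductase, had the largest log2(TPM + 1) change of the 37 members in 3 of the 4 comparisons. In wild-type H2023 it was at 8.91 and 5.74 TPM in normal culture and 229 and 206 in oncosphere culture, and under the knockout label at 6.87 and 5.69 against 297 and 228. The ratios of the means were 29.7 and 41.7, with log2 fold changes of 4.74 ± 0.31 and 5.17 ± 0.31 (limma adjusted p = 5.12e-06 and 1.54e-06). In A549 it went from 7.15 and 11.2 to 41.55 and 63.5 TPM in wild type and from 8.73 and 5.03 to 73.00 and 47.6 under the knockout label. MSMO1, which removes methyl groups at C4 of the ring, rose in all 4 comparisons. Its values were 66.3 and 41.1 against 697 and 596 TPM in wild-type H2023 and 40.9 and 40.4 against 719 and 824 under the knockout label. In A549 they were 27.6 and 32.6 against 93.4 and 176 and 24.4 and 20.2 against 137 and 87.1. CYP51A1, which demethylates lanosterol before these steps, and SC5D and DHCR7, which act after them, rose in all 4 comparisons with log2 fold changes of 0.97 to 3.14. NSDHL and HSD17B7, which work with MSMO1, rose in both H2023 comparisons, and HSD17B7 also in wild-type A549.

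The stretch before the start site is shown for members that moved together here and for SREBF2, as RefSeq gives it for GRCh38.p14 on the strand of the gene. Windows were listed for 32 of the 37 members. Each window of 300 bases, 250 before the start site and 50 after it, was searched on both strands for TCACNCCAC and CACCCCAC, spellings of a sterol regulatory element, for CCAAT, the core of the NF-Y site, and for CACGTG, the E-box. CACCCCAC lies inside those TCACNCCAC matches that have C at the open base. Only the 250 bases before the start site are printed, 5′ to 3′, with matches in capitals. The intervals are chr5:43313413-43313662 (HMGCS1, minus strand), chr11:65111622-65111871 (TM7SF2, plus), chr4:165327419-165327668 (MSMO1, plus), chr7:155297628-155297877 (INSIG1, plus) and chr22:41832855-41833104 (SREBF2, plus).
HMGCS1: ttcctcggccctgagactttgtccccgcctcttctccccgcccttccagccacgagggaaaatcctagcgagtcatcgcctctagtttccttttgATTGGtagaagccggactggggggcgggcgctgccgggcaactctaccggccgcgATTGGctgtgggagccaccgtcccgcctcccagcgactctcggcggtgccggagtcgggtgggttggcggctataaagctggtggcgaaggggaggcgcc
TM7SF2: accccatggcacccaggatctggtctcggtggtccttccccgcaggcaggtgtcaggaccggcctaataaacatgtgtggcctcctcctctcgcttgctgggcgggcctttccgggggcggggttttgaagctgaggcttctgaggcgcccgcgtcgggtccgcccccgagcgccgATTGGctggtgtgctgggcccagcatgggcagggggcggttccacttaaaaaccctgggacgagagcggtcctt
MSMO1: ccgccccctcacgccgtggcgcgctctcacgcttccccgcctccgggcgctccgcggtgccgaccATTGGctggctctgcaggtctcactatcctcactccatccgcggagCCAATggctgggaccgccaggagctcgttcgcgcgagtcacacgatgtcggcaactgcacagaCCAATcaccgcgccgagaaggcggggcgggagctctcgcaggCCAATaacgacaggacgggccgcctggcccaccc
INSIG1: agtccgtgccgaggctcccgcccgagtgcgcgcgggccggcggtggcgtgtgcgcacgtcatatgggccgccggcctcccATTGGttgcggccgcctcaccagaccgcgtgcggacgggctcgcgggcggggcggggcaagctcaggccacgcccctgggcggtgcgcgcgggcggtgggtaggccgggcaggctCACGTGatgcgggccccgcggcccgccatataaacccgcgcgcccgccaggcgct
SREBF2: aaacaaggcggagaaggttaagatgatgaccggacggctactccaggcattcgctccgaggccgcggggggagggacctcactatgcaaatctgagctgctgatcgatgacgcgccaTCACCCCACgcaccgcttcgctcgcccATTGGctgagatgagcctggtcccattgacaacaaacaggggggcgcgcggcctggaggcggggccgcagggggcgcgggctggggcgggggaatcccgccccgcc

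CCAAT, read on either strand, occurred in the windows of 23 of the 32 members, or 71.9%, and in 39.7% of all genes with a window. It was present in 13 of 15 sterol genes with a window, 6 of 9 fatty acid genes and 4 of 8 regulation and transport genes. HMGCS1 held 2 matches, TM7SF2 1 and MSMO1 4, all of them upstream of the start site. TCACNCCAC occurred in 1 member, SREBF2, and in 1.39% of all genes. CACCCCAC occurred in 2 members, SREBF2 and ABCA1, and in 3.39% of all genes. CACGTG occurred in 6 members, or 18.8%, including INSIG1, against 8.77% of all genes. No match says only that these letters are not in the window.

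PMVK, EBP and ACAT2 stood outside the pattern of the sterol branch. PMVK, phosphomevalonate kinase, was at 40.25 and 38.4 TPM in wild-type H2023 in normal culture and 36.6 and 41.45 in oncosphere culture. Its log2 fold change there was -0.01 ± 0.11. Under the knockout label PMVK went from 31.6 and 34.02 to 27.3 and 25.3 TPM and fell, with a log2 fold change of -0.31 ± 0.11 (limma adjusted p = 0.048). In those libraries the mitochondrial share was 10.5% and 12.3% in normal and 23.8% and 24.4% in oncosphere culture. All genes had a median log2 fold change of -0.12 there, and the part of this scaling in the fall of PMVK was not tested. EBP, the sterol isomerase, was at 2.52 and 2.71 and 1.95 and 1.5 TPM in the same wild-type H2023 groups. It was at 3.96 and 4.50 and 2.36 and 1.43 TPM under the knockout label, where it fell as well (log2 fold change -0.87 ± 0.18, limma adjusted p = 0.00311). ACAT2, which makes acetoacetyl-CoA, the substrate of HMGCS1, stayed under 1 TPM in all 8 H2023 libraries. In 69.6% of its exon bases ACAT2 overlaps genes on the opposite strand, among them SOD2 and TCP1, and whether counting used the strand is not given in the sources used here. Overlap of this kind also touched FDPS (28.9% of exon bases), HMGCS1 (19.9%) and LSS (10.6%), and their levels are uncertain to that extent.

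EBP and ACAT2 had the widest gap between the lines on the log2(TPM + 1) scale. In oncosphere culture of wild-type cells ABCG1 differed by more in the ratio of TPM, at 14.65 and 13.6 in A549 against 0.11 and a value listed at 0 in H2023. EBP was at 118 and 99.55 TPM in wild-type A549 in normal culture, against 2.52 and 2.71 in H2023. In oncosphere culture it was at 128 and 165 against 1.95 and 1.5, and the A549 libraries labelled knockout held 107 and 96.8 in normal and 133 and 110.3 in oncosphere culture. The log2 difference of H2023 from A549 was -4.92 ± 0.18 in normal and -5.75 ± 0.18 in oncosphere culture (limma adjusted p = 4.82e-09 and 1.24e-09). ACAT2 was at 41.2 and 41.7 TPM in wild-type A549 in normal culture against 0.57 and 0.27 in H2023. In oncosphere culture the values were 39.65 and 79.3 against 0.56 and 0.38. Under the knockout label A549 held 35.8 and 37.03 and 63.8 and 44.3 TPM in normal and oncosphere culture, and H2023 0.29 and 0.59 and 0.25 and 0.46. Its log2 difference between the wild-type lines was -4.91 ± 0.28 and -5.28 ± 0.28 (limma adjusted p = 2.21e-07 and 9.79e-08).

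Over all 37 members, EBP and ACAT2 included, fewer were called between the lines in normal culture than in oncosphere culture. In wild-type normal culture 9 members were higher in H2023 and 7 lower, where 41.5% of all genes were called, 26.6% higher and 14.9% lower. Centring each library on its median turned this split to 5 higher and 9 lower, and all genes had a median log2 difference of 0.12 before it. In oncosphere culture 25 members were higher in H2023 and 7 lower, against 47.8% of all genes called, 23.4% higher and 24.4% lower. All 18 sterol members were called there, 15 higher and 3 lower in H2023, the 3 being PMVK, EBP and ACAT2. The median log2 difference of the sterol branch was -0.02 in normal and 2.02 in oncosphere culture, against 0.12 and -0.01 over all genes.

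In the fatty acid branch 6 of 10 members rose with oncosphere culture in wild-type A549, 7 in A549 labelled knockout and 8 in H2023 of either genotype, and 0 fell. Their median log2 fold change was 0.72 and 0.94 in A549 and 1.84 and 1.64 in H2023, wild type and labelled knockout. ACSS2, which makes acetyl-CoA from acetate, moved most in H2023. It was at 15.5 and 16.4 TPM in wild-type normal culture and 199.6 and 350.1 in oncosphere culture, and under the knockout label at 11.6 and 13.3 against 201 and 266. The log2 fold changes were 3.97 ± 0.30 and 4.11 ± 0.30 (limma adjusted p = 1.45e-05 and 3.8e-06). In A549 it went from 10.5 and 13.01 to 40.8 and 78.2 TPM in wild type and from 15.9 and 13.1 to 57.1 and 40.5 under the knockout label, again without overlap.

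SCD, which places the first double bond in saturated fatty acids, had the largest log2(TPM + 1) change of the members in wild-type A549, while the ratio of mean TPM was larger for ABCG1 (8.27) than for SCD (6.19). It was at 93.85 and 236 TPM in normal culture and 862 and 1182 in oncosphere culture, a log2 fold change of 2.75 ± 0.41 (limma adjusted p = 0.000234). The normal replicates lay far apart, and the fold change was 2.09 without replicate 1 and 3.41 without replicate 2. The A549 libraries labelled knockout held 279 and 421 in normal and 807 and 887 TPM in oncosphere culture, a log2 fold change of 1.30 ± 0.41 (limma adjusted p = 0.0411). In H2023 SCD went from 217 and 93.6 to 823 and 823 TPM in wild type and from 201 and 143 to 759 and 762 under the knockout label. All 8 oncosphere libraries lay above all 8 normal ones. FADS2, the delta-6 desaturase, also rose in all 4 comparisons. It was at 163 and 254 against 445 and 668 TPM in wild-type A549 and 216 and 242 against 696 and 735 under the knockout label. In H2023 it was at 170.3 and 80.6 against 953 and 859 and 213 and 159 against 1131 and 1062. FADS1, the delta-5 desaturase, and LPIN1, a phosphatidate phosphatase, rose in all 4 too, with log2 fold changes of 0.56 to 2.00.

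FASN, the multidomain synthase that builds palmitate, had smaller fold changes than FADS2 in all 4 comparisons. In H2023 it went from 130.1 and 103 to 229 and 344 TPM in wild type and from 133 and 107 to 216 and 293 under the knockout label. It was called higher in both, with log2 fold changes of 1.27 ± 0.30 and 1.07 ± 0.30 (limma adjusted p = 0.00757 and 0.0155). In A549 it was at 85.9 and 106 against 69.9 and 145 TPM in wild type, where the groups overlapped, and 77.3 and 92.8 against 129 and 123 under the knockout label. Neither passed the test (limma adjusted p = 0.866 and 0.203). ACACA, which makes malonyl-CoA for FASN, was called only in wild-type A549, with a log2 fold change of 0.75 ± 0.14 there and -0.09 ± 0.14 in wild-type H2023. ACLY, which releases acetyl-CoA from citrate, rose in both H2023 comparisons with log2 fold changes of 1.47 and 1.25, and had -0.25 ± 0.14 in wild-type A549 (limma adjusted p = 0.172). The elongase ELOVL6 rose in H2023 of either genotype and in A549 labelled knockout, and ELOVL5 was called in A549 labelled knockout alone.

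The median of the sterol branch exceeded that of the fatty acid branch by 0.85 and 1.13 on the log2 scale in H2023, wild type and labelled knockout. In A549 the excess was 0.17 and 0.24. Without A549 wild-type oncosphere replicate 2 the wild-type A549 value was -0.04, and without replicate 1 it was 0.39. That pair of libraries differed across the sterol branch, with replicate 2 above replicate 1 for 17 of 18 members and a median ratio of 1.75. In wild-type H2023 normal culture replicate 1 was above replicate 2 for 16 of 18.

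The regulators did not move as a block. INSIG1, a sterol-sensing anchor of SCAP and itself an SREBP target, rose in all 4 comparisons. It was at 28.8 and 13.7 TPM in wild-type H2023 in normal culture and 305 and 367 in oncosphere culture, and under the knockout label at 19.1 and 22.00 against 242 and 313. The log2 fold changes were 4.0 ± 0.31 and 3.68 ± 0.31 (limma adjusted p = 1.45e-05 and 8.64e-06), within the range of the sterol enzymes. In A549 it was at 14.75 and 24.99 against 48.35 and 72.7 TPM in wild type and 24.6 and 29.6 against 55.6 and 52.03 under the knockout label (limma adjusted p = 0.0016 and 0.0432). INSIG2, the second anchor, rose in 3 comparisons by at most 0.99, and had 0.03 ± 0.16 in A549 labelled knockout.

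SREBF2, the sterol branch activator, rose in all 4 comparisons. It was at 24.9 and 37.9 against 70.9 and 76.8 TPM in wild-type A549 and 30.8 and 31.1 against 63.1 and 58.7 under the knockout label. In H2023 it was at 61.7 and 41.6 against 116 and 112 and 47.3 and 38.96 against 105 and 98.1. The log2 fold changes were 1.24 ± 0.19 and 0.95 ± 0.19 in A549 and 1.16 ± 0.19 and 1.23 ± 0.19 in H2023, with limma adjusted p of 0.00381 or less. SREBF1, whose product drives fatty acid genes, passed the test in 0 of 4. It was at 61.4 and 139 against 157 and 149 TPM in wild-type A549 and 95.2 and 168 against 168 and 159 under the knockout label. In H2023 it was at 81.1 and 72.25 against 55.2 and 38.3 and 105 and 77.6 against 55.2 and 45.85. Its log2 differences were 0.72 and 0.37 in A549 and -0.72 and -0.83 in H2023, with opposite signs in the 2 lines. In oncosphere culture of wild-type cells SREBF1 was lower in H2023 than in A549, with a log2 difference of -1.71 ± 0.34 (limma adjusted p = 0.00128).

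SCAP, the escort of both SREBPs, passed the test in 0 of 4. It was at 24.3 and 25.01 against 23.1 and 25.2 TPM in wild-type A549 and 26.01 and 24.7 against 29.65 and 26.9 under the knockout label. In H2023 it was at 36.6 and 38.7 against 33.1 and 30.4 and 40.8 and 38.9 against 41.1 and 35.2. Its log2 differences ran from -0.24 to 0.15, with a standard error of 0.11 each. STARD4, a carrier that moves cholesterol between membranes, rose in all 4 comparisons with log2 fold changes of 1.61 to 2.61.

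The sterol exporters went opposite ways in the wild-type cells of the 2 lines. ABCA1, which loads cholesterol onto apolipoprotein, was at 2.79 and 5.18 TPM in wild-type H2023 in normal culture and 0.16 and 0.10 in oncosphere culture. Under the knockout label it was at 2.04 and 1.36 against 0.06 and 0.10. It fell in both (log2 fold change -2.10 ± 0.30 and -1.31 ± 0.30, limma adjusted p = 0.000396 and 0.005), to levels under 1 TPM in all 4 oncosphere libraries. In wild-type A549 it rose from 0.25 and 0.74 to 1.71 and 1.74 TPM (log2 fold change 0.89 ± 0.30, limma adjusted p = 0.0298). In A549 labelled knockout it was at 2.66 and 5.64 against 2.45 and 3.41 TPM and was not called. ABCG1, an exporter to high-density lipoprotein, rose in wild-type A549 from 0.73 and 2.69 to 14.65 and 13.6 TPM, a log2 fold change of 2.58 ± 0.27 (limma adjusted p = 1.72e-05). In H2023 it was at 0.99 and 1.62 against 0.11 and a value listed at 0 TPM in wild type and 0.81 and 0.69 against 0.10 and 0.05 under the knockout label, and it was called lower in wild type (log2 fold change -1.12 ± 0.27, limma adjusted p = 0.00998). MYLIP, a ubiquitin ligase acting on lipoprotein receptors, fell in H2023 from 1.77 and 2.02 to 0.20 and 0.26 TPM and from 1.60 and 2.04 to 0.15 and 0.24 under the knockout label. In A549 it was at 2.09 and 2.91 against 3.90 and 3.19 and 1.93 and 3.23 against 1.90 and 2.64 TPM and was not called. At levels this low, the log2(TPM + 1) scale understates the change.

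**Figure D3:**
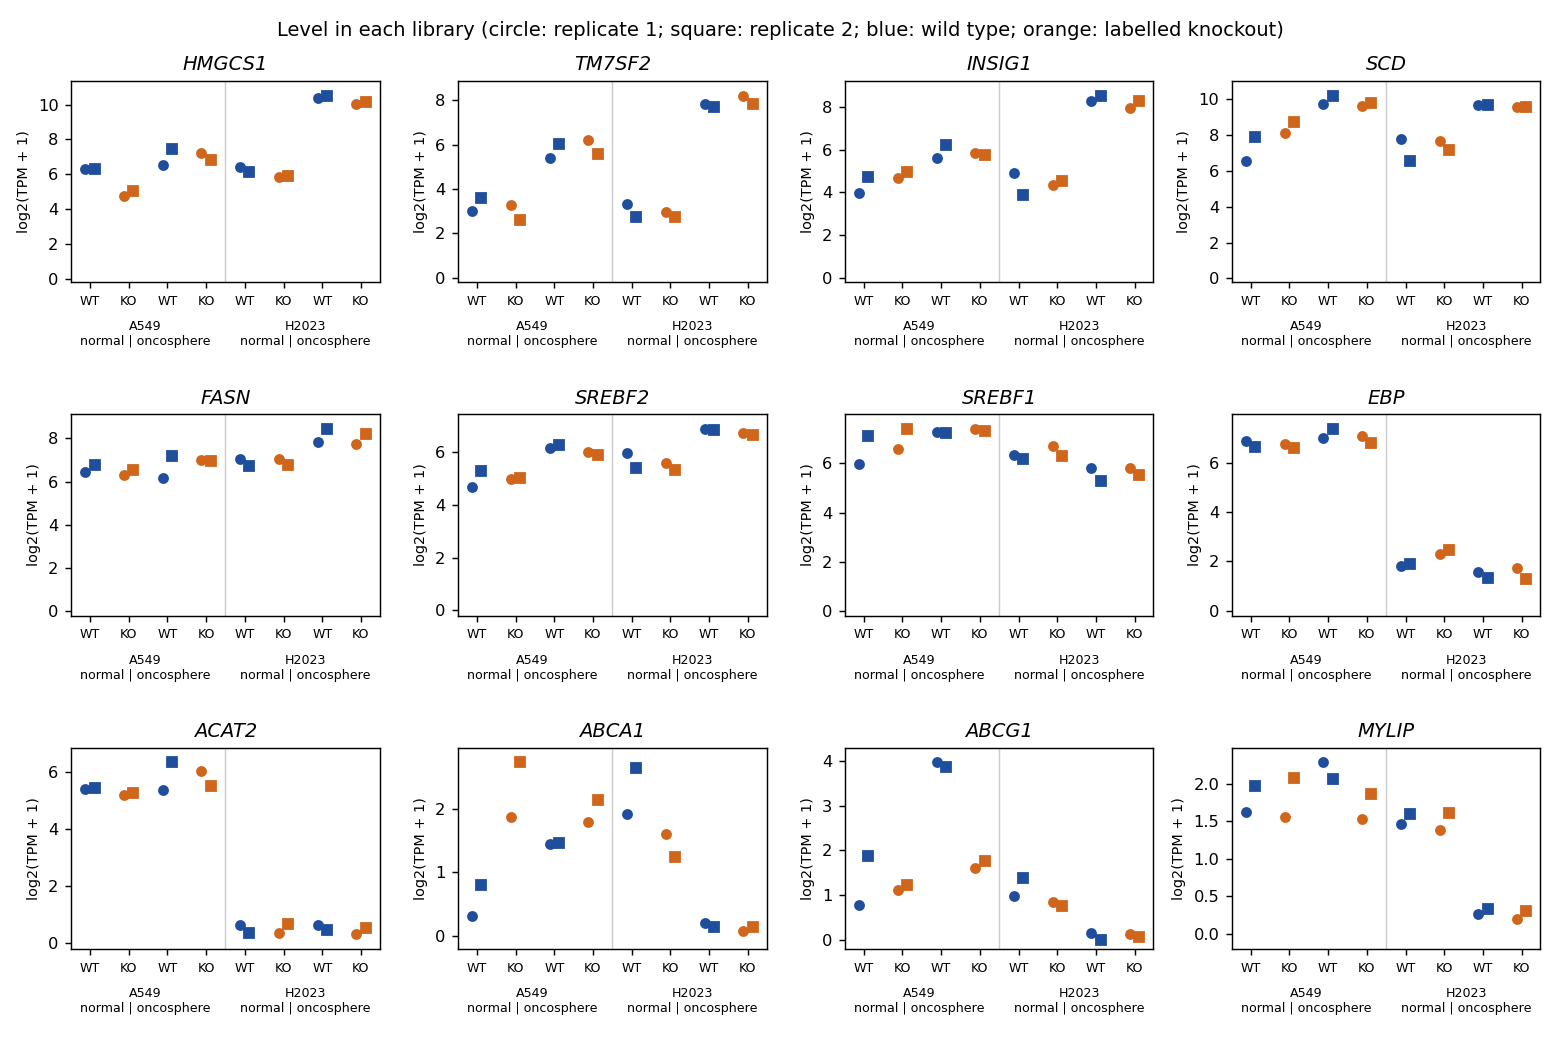
Log2(TPM + 1) of 12 members in each of the 16 libraries, A549 left and H2023 right of the grey line in each panel, wild type in blue and libraries labelled knockout in orange. HMGCS1, TM7SF2 and INSIG1 are highest in the 4 H2023 oncosphere libraries, where ABCA1, ABCG1 and MYLIP are lowest, and EBP and ACAT2 separate the lines in every group.

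The difference of the culture effect between the lines was tested directly, as a comparison added after the data had been seen. In wild type 25 members differed, 21 with a positive signed difference (H2023 minus A549) and 4 with a negative one. There 14.1% of all genes were called, 3.79% positive and 10.3% negative. Under the knockout label 19 were positive and 2 negative, against 7.21% of all genes called, 1.68% positive and 5.53% negative. The sterol branch supplied 15 of the positive ones in each genotype. HMGCS1 led in wild type, with a difference of 3.47 ± 0.33 (limma adjusted p = 0.000129). Under the knockout label INSIG1 led, with a difference of 2.71 ± 0.44, ahead of MVD with 2.61 ± 0.35 and LSS with 2.50 ± 0.38 (limma adjusted p = 0.00432, 0.00183 and 0.00302). LSS was at 15.00 and 18.97 TPM in A549 labelled knockout in normal culture against 34.5 and 23.55 in oncosphere culture, and at 40.5 and 29.7 against 329 and 336 in H2023. In wild type it was at 11.6 and 15.1 against 33.35 and 44.4 and 46.03 and 25.01 against 308 and 316 TPM. The negative ones in wild type were ABCG1 (-3.70 ± 0.39), ABCA1 (-2.98 ± 0.42), MYLIP (-1.62 ± 0.29) and ACACA (-0.85 ± 0.20). ABCG1 and ABCA1 rose in wild-type A549 and fell in wild-type H2023. The count of 21 under the knockout label was 12 without H2023 normal replicate 1 and 13 without A549 oncosphere replicate 2.

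Fewer members were called between the knockout label and wild type than between cultures. In A549 normal culture 3 members were higher and 4 lower, where 17.7% of all genes were called, 7.32% higher and 10.4% lower, so the share of members called was close to the background. With each library centred on its median the split was 3 higher and 2 lower. The count of 7 was 2 without wild-type replicate 1 or without labelled-knockout replicate 2. All 4 lower members were sterol enzymes, HMGCS1, PMVK, CYP51A1 and SC5D. The authors' deposited table called HMGCS1 and CYP51A1 of these, but not PMVK (adjusted p = 0.233) or SC5D (0.134), and called DHCR7 lower (0.0155). The log2 fold change was below 0 for 16 of the 18 sterol members and above 0 for 8 of the 10 fatty acid members, with medians of -0.19 and 0.19 against -0.03 over all genes. KRT8, the epithelial keratin, was at 3626 and 3569 TPM in wild type and 1259 and 765.4 under the knockout label in the same libraries, and its part in these results was not tested.

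HMGCS1 went from 78.9 and 77.9 TPM in wild-type A549 in normal culture to 26.05 and 31.2 in the libraries labelled knockout. The pairs were tight and far apart, and the log2 fold change was -1.43 ± 0.23 (limma adjusted p = 0.00162). SQLE was at 66.45 and 73.9 against 42.3 and 37.65 TPM without overlap, but limma gave an adjusted p of 0.0598. In the authors' deposited table SQLE was called lower, at a log2 fold change of -0.73 (adjusted p = 1.37e-05). CYP51A1, lanosterol demethylase, was at 51.4 and 58.00 against 33.8 and 34.75 TPM, a log2 fold change of -0.66 ± 0.19 (limma adjusted p = 0.0316). Leaving out any of the 4 libraries in turn took its limma adjusted p to between 0.0867 and 0.14, with values of -0.74 to -0.57.

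The members that limma called higher in A549 labelled knockout in normal culture were ABCA1, INSIG2 and LPIN1. The authors' deposited table called these, and also ELOVL5 (log2 fold change 0.47, adjusted p = 0.00315) and ELOVL6 (0.62, adjusted p = 0.00067). ELOVL5 was at 57.05 and 62.2 against 81.3 and 78.2 TPM. ELOVL6 was at 19.6 and 21.85 against 24.6 and 20.75 TPM and overlapped. ABCA1 went from 0.25 and 0.74 to 2.66 and 5.64 TPM, a log2 fold change of 1.74 ± 0.30 (limma adjusted p = 0.00201). Its wild-type level was under 1 TPM. INSIG2 went from 11.4 and 13.6 to 20.1 and 24.8 TPM, a log2 fold change of 0.79 ± 0.16 (limma adjusted p = 0.00532). Without wild-type replicate 1 or without labelled-knockout replicate 2 its adjusted p by limma was 0.0567 and 0.0594. LPIN1 went from 7.46 and 7.32 to 11.1 and 13.65 TPM, a log2 fold change of 0.67 ± 0.18 (limma adjusted p = 0.0219). That call was lost without wild-type replicate 1, wild-type replicate 2 or labelled-knockout replicate 2, at limma adjusted p of 0.0959, 0.0794 and 0.16. SCD, at 93.85 and 236 against 279 and 421 TPM, had a log2 difference of 1.20 ± 0.41 with wide replicates (limma adjusted p = 0.0661).

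In A549 oncosphere culture 3 members were higher and 3 lower, where 20.7% of all genes were called, 10.2% higher and 10.5% lower. The share of members called was therefore not above the background, in either direction. The higher ones by limma were all of the fatty acid branch. The authors' deposited table also called ABCA1 higher (log2 fold change 0.81, adjusted p = 0.0112) and STARD4 lower (adjusted p = 0.0197). ELOVL5, an elongase of polyunsaturated fatty acids, went from 69.2 and 79.4 to 140.1 and 173 TPM, a log2 fold change of 1.06 ± 0.20 (limma adjusted p = 0.00227). ELOVL6, which extends palmitate, went from 22.5 and 29.4 to 51.9 and 37.2, a log2 fold change of 0.75 ± 0.23 (limma adjusted p = 0.0384), and without wild-type replicate 1 or labelled-knockout replicate 1 the adjusted p by limma was 0.239 and 0.247. ACLY went from 245 and 283 to 378 and 422 TPM, a log2 fold change of 0.60 ± 0.14 (limma adjusted p = 0.00969), and the adjusted p by limma was 0.0878 without wild-type replicate 1 and 0.0855 without labelled-knockout replicate 2.

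The lower members there were ABCG1, CYP51A1 and PMVK. ABCG1 was at 14.65 and 13.6 TPM in wild type and 2.06 and 2.39 in the libraries labelled knockout. The gap was far wider than the replicate spread, with a log2 fold change of -2.23 ± 0.27 (limma adjusted p = 0.000134), while in normal culture the values were 0.73 and 2.69 against 1.17 and 1.35 TPM and overlapped. CYP51A1 was at 87.99 and 141 against 78.3 and 70.1 TPM, a log2 fold change of -0.58 ± 0.19 (limma adjusted p = 0.0464). Wild-type replicate 2 decided that value, which was -0.24 without it (limma adjusted p = 0.364), and the call was also lost without either library labelled knockout (limma adjusted p = 0.0897 and 0.219). PMVK was at 60.7 and 55.02 against 38.4 and 41.3 TPM, a log2 fold change of -0.53 ± 0.11 (limma adjusted p = 0.00468). HMGCS1, at 92.9 and 176 against 149 and 110.3 TPM, overlapped here.

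In H2023 few members were called for the knockout label. In normal culture limma called 0 members, with 4 at an unadjusted p under 0.05, where 3% of all genes were called, 1.03% higher and 1.97% lower. The authors' deposited table called 3 members lower there, HMGCS1 (log2 fold change -0.46), FDPS (-0.47) and ABCA1 (-1.28), against 10.8% of the genes with an adjusted p. In oncosphere culture limma called 1 member, PMVK, where 5.56% of all genes were called, 3.17% higher and 2.4% lower. PMVK was at 36.6 and 41.45 TPM in wild type and 27.3 and 25.3 in the libraries labelled knockout, a log2 fold change of -0.55 ± 0.11 (limma adjusted p = 0.0148). Without wild-type replicate 2 or labelled-knockout replicate 2 limma gave PMVK an adjusted p of 0.0858 and 0.0938. The authors' deposited table listed PMVK at -0.65 on the log2 scale (adjusted p = 0.0826) and called FDPS lower instead (-0.70).

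**Figure D4:**
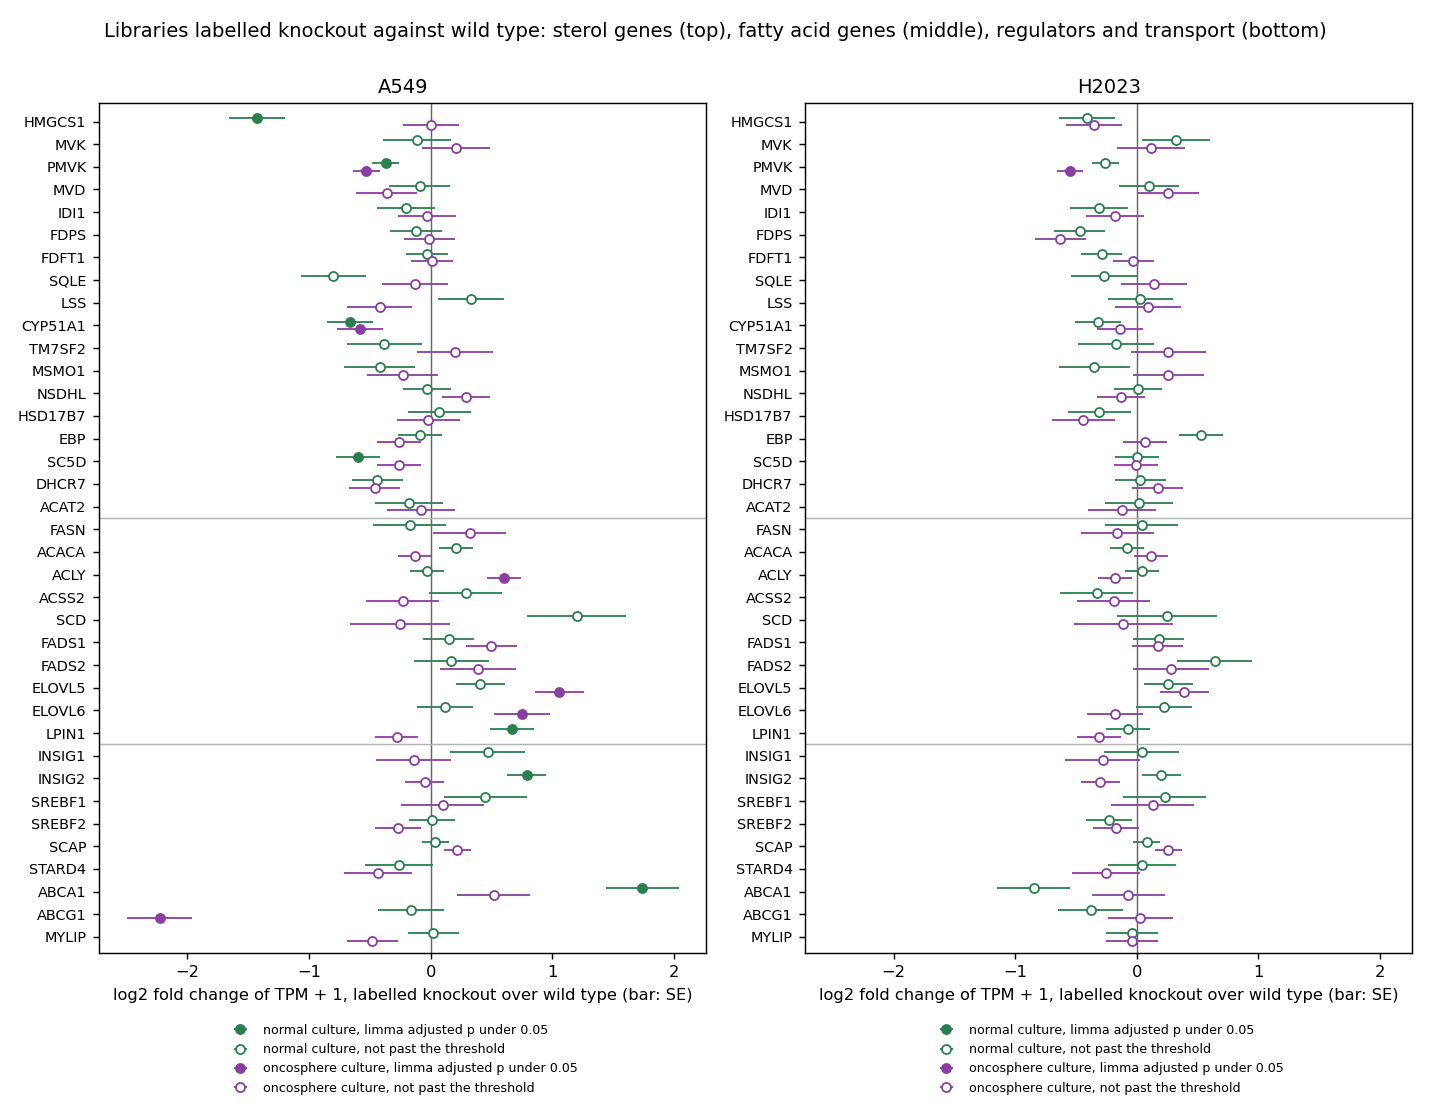
Log2 fold change of TPM + 1 between libraries labelled knockout and wild type for the 37 members, in A549 (left) and H2023 (right), with bars of 1 standard error and filled points where the limma adjusted p is under 0.05. In A549 13 points are filled over both cultures, and in H2023 1 is, PMVK in oncosphere culture.

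In A549 the signed effect of the knockout label differed between the cultures for 4 members, where 9.71% of all genes were called. The difference, oncosphere minus normal culture, was positive for 5.61% of all genes and negative for 4.1%. For HMGCS1 the difference was 1.43 ± 0.33 (limma adjusted p = 0.0207). HMGCS1 was lower under the knockout label in normal culture, and its values overlapped in oncosphere culture. ABCG1 (-2.07 ± 0.39), LPIN1 (-0.95 ± 0.25) and INSIG2 (-0.84 ± 0.22) had a negative difference, with limma adjusted p = 0.00817, 0.0335 and 0.0353. ABCG1 was lower under the knockout label in oncosphere culture, and its values overlapped in normal culture. The count was 1 without wild-type normal replicate 1 and 2 without labelled-knockout normal replicate 2, wild-type oncosphere replicate 1 or either labelled-knockout oncosphere library. LPIN1 lost its call when any of 7 libraries was left out, and HMGCS1 when wild-type normal replicate 1 (limma adjusted p = 0.0714), labelled-knockout normal replicate 1 (0.0728) or labelled-knockout oncosphere replicate 1 (0.0648) was. In H2023 0 members differed by limma, with 1 at an unadjusted p under 0.05, and 0.00549% of all genes were called.

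Between the lines, the signed effect of the knockout label in normal culture differed for ABCA1 alone. The difference, H2023 minus A549, was -2.59 ± 0.42 (limma adjusted p = 0.00246). There 12.1% of all genes were called, 6.61% with a positive and 5.46% with a negative difference. ABCA1 was at 2.79 and 5.18 TPM in wild-type H2023 and 2.04 and 1.36 under the knockout label, the opposite direction to A549, though that difference by itself was not called (limma adjusted p = 0.152). In oncosphere culture the effect differed for ABCG1 (2.26 ± 0.39) and ACLY (-0.78 ± 0.20), with limma adjusted p = 0.00219 and 0.0197. Of all genes 16.3% were called, 9.37% with a positive and 6.9% with a negative difference. ACLY was at 386.5 and 489 TPM in wild-type H2023 and 365 and 405 under the knockout label, and its call was lost at limma adjusted p of 0.064 to 0.0783 without A549 wild-type replicate 1, A549 labelled-knockout replicate 2, H2023 wild-type replicate 2 or H2023 labelled-knockout replicate 1. The count of 2 was 1 without any of the last 3 of these, 3 without H2023 labelled-knockout replicate 2, 4 without replicate 1 of either wild type and 6 without A549 wild-type replicate 2.

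Other genes of these pathways were taken from lists. The 7 genes of SREBP processing and sterol-regulated degradation gave 1 rise and 2 falls in wild-type A549 and 0 rises and 4 falls in wild-type H2023, where 22.4% and 22.2% of all genes fell. Under the knockout label they gave 0 rises and 1 fall in A549 and 1 rise and 1 fall in H2023, where 11% and 22.7% of all genes fell. The all-gene share falling in H2023 depended on the scaling, as given above. ERLIN1 was lower in all 4 comparisons. Of 9 genes of fatty acid oxidation, the opposing pathway, 8 rose in wild-type A549 and 6 in A549 labelled knockout, where 19.1% and 11.4% of all genes rose. In H2023 0 and 2 of the 9 rose, wild type and labelled knockout, where 5.17% and 9.76% of all genes did. Of 15 other genes of fatty acid activation and elongation, 7 rose and 4 fell in wild-type A549, and 7 rose and 1 fell in A549 labelled knockout. In H2023 5 rose and 4 fell in either genotype. The shares of all genes rising are those just given, and those falling were 22.4%, 11%, 22.2% and 22.7% in the same order. ACSL4, which is on that list and activates polyunsaturated fatty acids, rose in all 4 with log2 fold changes of 1.12 to 2.13.

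With the knockout label in A549, several genes of sterol uptake and trafficking changed. NPC1, which exports cholesterol from lysosomes, was at 34.6 and 32.3 TPM in wild-type normal culture and 180.9 and 169.2 under the knockout label. The log2 fold change of NPC1 was 2.35 in normal and 1.47 in oncosphere culture (limma adjusted p = 0.000449 and 0.00616). NPC2, its luminal partner, had 1.78 and 1.85 (limma adjusted p = 0.00392 and 0.00206). TMEM97, a sterol-regulated membrane protein that binds NPC1, fell in both, from 76.03 and 69.9 to 33.4 and 29.8 TPM in normal culture and from 77.7 and 83.1 to 37.8 and 33.7 in oncosphere culture. Of the 9 genes on that list, 3 were higher and 1 lower in normal culture and 3 higher and 3 lower in oncosphere culture, where 17.7% and 20.7% of all genes were called. In H2023 0 of the 9 were called in either culture, where 3% and 5.56% of all genes were.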

How the data were processed

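RNA was extracted with ReliaPrep columns and 1 µg went into TruSeq Stranded mRNA libraries, per the labels' protocols. HISAT2, StringTie and GRCh38 are named in the submitters' processing notes, without versions or order. Each of 4 deposited tables compared 2 wild-type with 2 labelled-knockout libraries of a line and culture. They hold TPM per library, which the authors computed and which keeps no sequencing depth, so depth is unknown. They also hold the authors' log2 fold changes with standard errors, p-values, a test score and a mean signal per gene. The score had the opposite sign to the fold change and was not used. Line was taken from the table, and culture, genotype and replicate from the column name.

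TPM + 1 was log2 transformed, and 1 limma-trend model (limma 3.58.1, R 4.3.3) with 8 group means and 8 residual degrees of freedom was fitted to 16 libraries and 18227 genes, with Benjamini-Hochberg adjustment in each of 16 contrasts and a threshold of 0.05. The first copy of a repeated identifier was used. No filter on low values was applied, so all 37 members were tested. The procedure was tested on simulated data with independent noise, no shift in library composition and changes planted only above a minimum mean level. That simulation therefore does not bear on the mitochondrial shift or on members as low as ABCA1, ABCG1 and MYLIP. Members and gene lists were chosen with earlier results of these data known. Values in every library are given for HMGCS1, SQLE, FASN, SCD, INSIG1, SREBF1, SREBF2 and SCAP, and for the called members with the largest change, 5 in each knockout or culture contrast and 3 in the others. SC5D, MVK and the rest are given by range and call. Of the 7 other pathway lists, 1 holds a gene that is not reported here and was left out. Alternatives changed the pseudocount to 0.1, kept genes with a mean of at least 1 TPM, rescaled or centred the libraries, fitted fewer libraries, blocked on replicate number, left out single libraries or used the authors' deposited table.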

Additional observations from a re-analysis of the deposited data

Results flagged for a closer look

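The following effects differed between cultures or lines by the limma test of the difference itself, on the log2 scale. In A549 the knockout-label effect in oncosphere culture minus that in normal culture was -2.07 for ABCG1, 1.43 for HMGCS1 and -0.95 for LPIN1, among 4 members called. Of all genes 9.71% were called for that difference. The knockout-label effect in H2023 minus that in A549 was -2.59 for ABCA1 in normal culture, the 1 member called, and 2.26 for ABCG1 and -0.78 for ACLY in oncosphere culture, the 2 members called. Of all genes 12.1% were called in normal and 16.3% in oncosphere culture.

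The culture effect in H2023 minus that in A549 was 3.47 for HMGCS1, -3.70 for ABCG1 and -2.98 for ABCA1 in wild type, among 25 members called. Under the knockout label it was 2.71 for INSIG1, 2.61 for MVD and 2.50 for LSS, among 21 called. Of all genes 14.1% were called in wild type and 7.21% under the knockout label. The 3 ABCG1 differences share the same A549 wild-type oncosphere libraries and are not separate observations, and the HMGCS1 differences share A549 wild-type libraries as well.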

How the results depend on the processing

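No result changed sign except as given here. With the 8 libraries of the line alone, 4 members in place of 7 were called for the knockout label in A549 normal culture, 0 in place of 1 in H2023 oncosphere culture, and 2 in place of 4 for the difference between A549 cultures. With the 4 libraries of the table alone, which leave 2 residual degrees of freedom, H2023 oncosphere culture also gave 0, and all-gene calls were 1971, 2413, 0 and 0 in place of 3233, 3780, 546 and 1014 over the 4 knockout comparisons. The authors' deposited table called 3 members in H2023 normal culture in place of 0. Leaving out single libraries gave 2 to 5, 4 to 7, 0 to 0 and 0 to 1 members for the knockout label (A549 normal, A549 oncosphere, H2023 normal, H2023 oncosphere). For culture it gave 19 to 27 and 16 to 18 in A549 and 28 to 30 and 28 to 31 in H2023, wild type and labelled knockout. For the lines it gave 12 to 14 and 30 to 34. For differences of the knockout effect it gave 1 to 5 and 0 to 0 between cultures (A549, H2023) and 1 to 2 and 1 to 6 between lines (normal, oncosphere), and for the culture effect between lines 21 to 26 and 12 to 19. The sterol minus fatty acid median ranged from -0.53 to -0.31, -0.67 to -0.24, -0.39 to -0.21 and -0.16 to 0.18 for the knockout label in the order above. For culture it ranged from -0.04 to 0.39 and 0.13 to 0.34 in A549 and 0.81 to 1.11 and 1.02 to 1.29 in H2023. The causes were not tested.

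Replicate numbers were shared between groups, but the labels do not say that they pair libraries. The correlation of same-numbered deviations was 0.075, 0.131, 0.027 and 0.461 in the knockout comparisons. With the replicate number as a block, the counts of called members were 8, 5, 0 and 1 for the knockout label, 27, 23, 30 and 31 for culture, 16 and 33 for the lines, 4, 0, 1 and 2 for differences of the knockout effect, and 26 and 21 for the culture effect between lines. Without counts the depth behind ABCA1, ABCG1, MYLIP and H2023 ACAT2, all at or under 1 TPM in some group, is unknown.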
